A study of Neurospora crassa with 12 samples.

Results

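The wild-type (WT) ribosome profiling of *Neurospora crassa*, a filamentous fungus, was examined codon by codon at the ribosomal A site, where the incoming aminoacyl-tRNA is selected. Of the 12 samples of the series, the 2 WT ribosome profiling libraries (replicates 1 and 2) were used, each with a deposited absolute codon occupancy for all 61 sense codons. The members are therefore all 61 codons in each library, and none was filtered out. The remaining samples are mRNA-seq libraries, of which the 2 made beside the WT footprints enter the occupancies, and the libraries of a strain silenced for *adat2*, which were not compared here.

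Both WT libraries came from mycelia of strain 87-3, labelled wild type, which carries the *bd* allele and mating type *a* by the study's methods. Fresh conidia were grown in plates for 3 days and then as discs with shaking at 200 rpm in constant light for 1 day. The medium was 1 × Vogel's with 0.1% glucose and 0.01 M quinic acid (QA). The study's methods also list arginine in this medium, which the labels do not name. QA induces the silencing construct of the other strain and was present in the WT cultures too. Cycloheximide (CHX), which arrests elongating ribosomes, was given at 50 μg/ml for the last 10 min before harvest of both libraries. The first library carries no replicate number in its label and was called replicate 1 because the other is numbered 2. The study describes them as independent biological replicates.

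The A-site occupancy of a codon is the density of footprints whose A site holds that codon, relative to the mRNA level. In this field a low occupancy is read as a short dwell time of the ribosome, and so as fast decoding. The absolute measure used here is not scaled by the mean footprint density of each gene. Differences in ribosome load between genes therefore stay in it. To compare codons within a family, the study used another measure, relative to the mean density of the reading frame. The pair between the wobble base of the anticodon and the last base of the codon tolerates combinations other than the Watson-Crick ones. In eukaryotes the ADAT2-ADAT3 enzyme converts the wobble adenosine of certain tRNAs to inosine, which can pair with C, U and A. The boxes read by such tRNAs are called ADAT-related here and are those of Ala (GCN), Arg (CGN), Ile (ATC, ATT, ATA), Leu (CTN), Pro (CCN), Ser (TCN), Thr (ACN) and Val (GTN). In the remaining boxes the pyrimidine-ended codons NNC and NNT are usually read by a tRNA with a wobble G, which pairs with C directly and with U by wobble. Codons are written as DNA, so that T stands for U.

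The codons spread over less than 3-fold in WT mycelia, and the order was much the same in both libraries. CGA (Arg) had the highest occupancy, at 0.0800 in replicate 1 and 0.0851 in replicate 2. TCC (Ser) had the lowest, at 0.0294 and 0.0285. The highest codon thus lay 2.72-fold and 2.99-fold above the lowest in replicates 1 and 2. After CGA, the highest means were those of ATA (Ile; 0.0774 and 0.0722), CCA (Pro; 0.0715 and 0.0767), GCA (Ala; 0.0679 and 0.0725) and CGG (Arg; 0.0676 and 0.0687). Above TCC, the lowest were CTC (Leu; 0.0306 and 0.0333), ACC (Thr; 0.0323 and 0.0327), GTC (Val; 0.0344 and 0.0319) and TCT (Ser; 0.0316 and 0.0359). Among the 10 highest codons of the mean, 8 ended in A and 2 in G, and among the 10 lowest, 9 ended in C and 1 in T. Of the 10 highest and of the 10 lowest codons, 8 were shared by the libraries in each case.

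Neighbours in this order were rarely separated. Of the 60 steps between neighbouring codons, 58 were smaller than 2 standard errors of a log2 difference, and the largest step was 0.14 on the log2 scale. Only codons far apart in the order, or synonymous codons with a clear gap, can therefore be taken as separated. Orders and ranks given below also include smaller steps and are descriptions of the values.

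**Figure D1:**
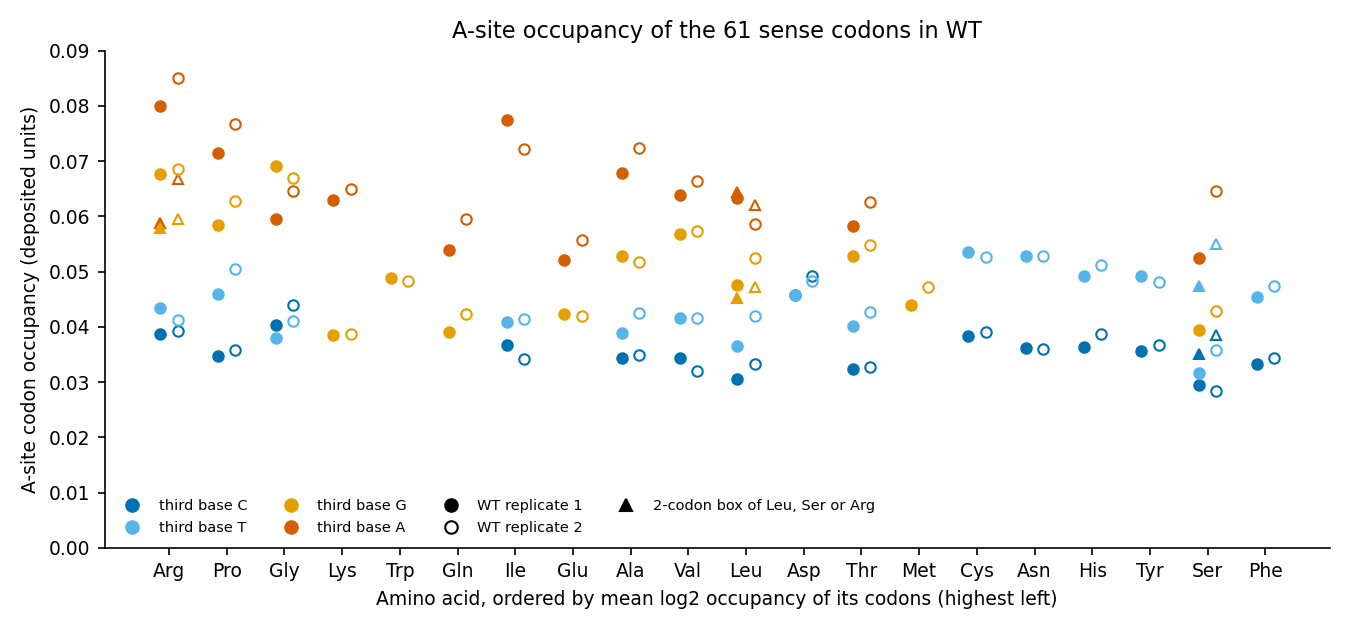
A-site codon occupancy (deposited units, linear axis from 0) of the 61 sense codons in WT replicate 1 (filled) and WT replicate 2 (open), with amino acids ordered by the mean log2 occupancy of their codons and colours marking the third base. In both libraries the C-ended codon is the lowest in 13 of the 15 amino acids that have one (not in Gly and Asp) and the A-ended codon the highest in 11 of the 12 that have one (not in Gly), and CGA of Arg is the highest point at 0.0800 and 0.0851.

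The last base of the codon went with most of the spread. The 14 A-ended codons had a median occupancy of 0.0632 in replicate 1 and 0.0647 in replicate 2. The 15 G-ended codons had medians of 0.0488 and 0.0517, the 16 T-ended codons 0.0444 and 0.0450, and the 16 C-ended codons 0.0354 and 0.0359. This order, A above G above T above C, was the same in both libraries. It also held after the mean of each amino acid was subtracted, with mean log2 values of 0.39 and 0.41 (A), 0.06 and 0.05 (G), −0.06 and −0.04 (T) and −0.34 and −0.36 (C) in replicates 1 and 2. The groups overlapped, since the highest C-ended codon, GAC of Asp at 0.0458 and 0.0491, lay above many T- and G-ended codons. The lowest A-ended codon, GAA of Glu, had 0.0521 and 0.0557 and lay above every C-ended codon in both libraries.

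Grouping by the last base took 68.0% of the variance of log2 occupancy over the 61 codons in replicate 1 and 72.1% in replicate 2, with 3 degrees of freedom. The first base took 3.43% and 3.82%, and the second base 3.51% and 3.64%, also with 3 degrees of freedom each. The number of G or C bases in the codon took 6.76% and 3.58%. This count therefore went with little of the spread, and other measures of base composition were not examined. The encoded amino acid took 16.6% and 14.0% with 19 degrees of freedom. Adjusted for degrees of freedom, the share of the amino acid was −22.0% and −25.9%, below the 0 of a grouping that takes no more than its number of levels would, whereas the share of the last base was 66.3% and 70.6%. Added together, last base and amino acid took 86.9% and 87.5%, or 79.4% and 80.2% adjusted, above the adjusted share of the last base alone. These shares are descriptions over codons, which are not replicates.

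**Figure D2:**
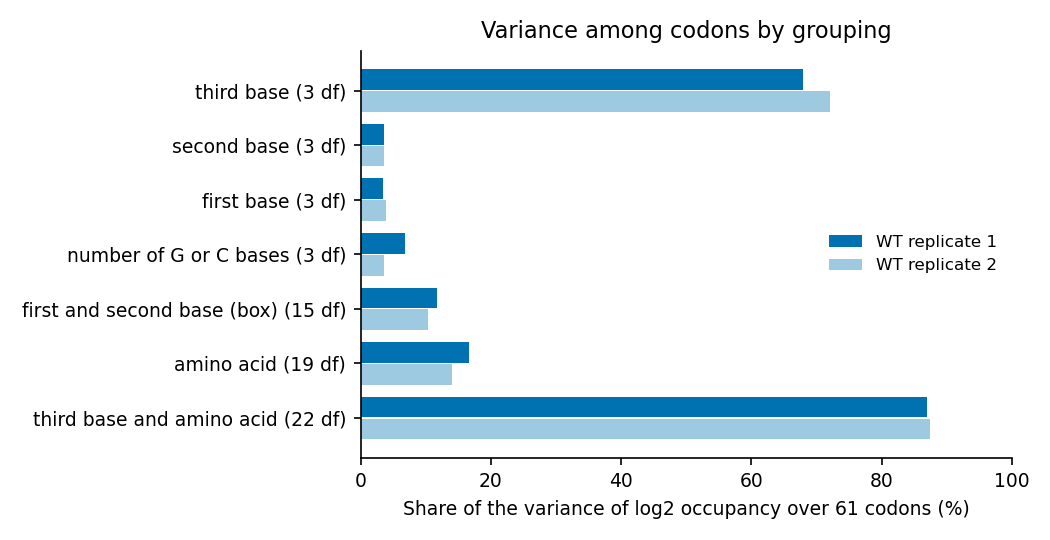
Share of the variance of log2 A-site occupancy over 61 codons (percent, horizontal bars) taken by each grouping of the codons, in WT replicate 1 (dark) and WT replicate 2 (light), with the degrees of freedom (df) of each grouping. The third base alone took 68.0% and 72.1%, more than the amino acid with 19 df, at 16.6% and 14.0%.

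Differences between synonymous codons were tested on the log2 ratio taken within each library, with limma over all 87 synonymous pairs and Benjamini-Hochberg adjustment. Of the 87 pairs, 80 (92.0%) passed an adjusted p of 0.05, and the same 80 had an unadjusted p under 0.05. limma pooled the spread over all pairs and gave each the same standard error, 0.0621 on the log2 scale. Since pairs share codons and the spread rests on 2 libraries, these p-values are too small. The smallest difference called was 0.13 on the log2 scale, and the largest not called was 0.12. The direction was the same in both libraries for 86 of the 87 pairs, the exception being Asp, whose codons were tied in replicate 1. The complete order of the codons agreed between the libraries in 17 of the 18 amino acids with more than 1 codon, and in 9 of the 9 with 3 or more.

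In the 4-codon ADAT-related boxes the order was the same everywhere. Occupancy increased from NNC over NNT and NNG to NNA in 7 of the 7 boxes (Ala, Arg, Leu, Pro, Ser, Thr and Val) in each library. The 3 codons of Ile followed it too, with 0.0368 and 0.0342 for ATC, 0.0409 and 0.0415 for ATT and 0.0774 and 0.0722 for ATA. Averaged over the 7 boxes, NNT lay above NNC by 0.24 and 0.33 on the log2 scale in replicates 1 and 2, NNG above NNT by 0.42 and 0.39, and NNA above NNG by 0.29 and 0.32. The step in the middle, between the pyrimidine- and purine-ended codons, had the largest mean in both libraries. Box by box, it was the largest step only in Ala, Arg, Thr and Val in replicate 1. In replicate 2 it was the largest only in Arg and Val. From end to end, NNA exceeded NNC by 1.94-fold and 2.05-fold on average.

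**Figure D3:**
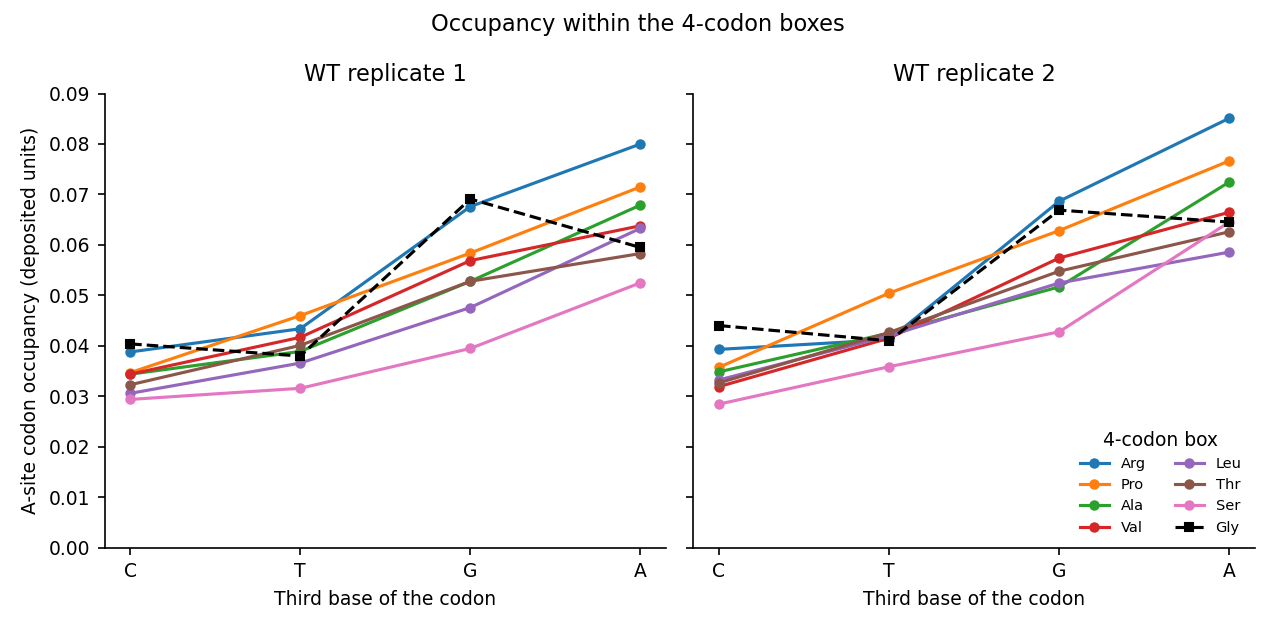
A-site codon occupancy (deposited units, linear axis from 0) against the third base of the codon for the 8 boxes whose 4 codons encode 1 amino acid, in WT replicate 1 (left) and WT replicate 2 (right), with a line joining the codons of a box. The 7 ADAT-related boxes (solid, circles) climb from C to A in both libraries, and Gly (dashed, squares) peaks at G, at 0.0691 and 0.0669.

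The boxes differed in where they climbed. In Arg, CGA had 0.0800 and 0.0851, CGG 0.0676 and 0.0687, CGT 0.0434 and 0.0413, and CGC 0.0388 and 0.0393. The step from CGT to CGG was the largest G over T step of the 7 boxes, at 0.64 and 0.74 on the log2 scale, and that from CGC to CGT the smallest in replicate 2, at 0.07. Pro climbed more evenly, with 0.0347 and 0.0358 for CCC, 0.0460 and 0.0505 for CCT, 0.0584 and 0.0628 for CCG and 0.0715 and 0.0767 for CCA. Its step from CCC to CCT, 0.41 and 0.50, was the largest T over C step of these boxes. In Ser, by contrast, TCA stood off the rest, with 0.0525 and 0.0645, above TCG (0.0395 and 0.0428), TCT (0.0316 and 0.0359) and TCC (0.0294 and 0.0285). All 4 codons of the Ser box were the lowest of their own last base among the 7 boxes in replicate 1, as were TCC, TCT and TCG in replicate 2.

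Ala had 0.0679 and 0.0725 for GCA against 0.0344 and 0.0349 for GCC, a ratio of 1.97 and 2.08. Val had 0.0638 and 0.0665 for GTA against 0.0344 and 0.0319 for GTC, and Thr had 0.0583 and 0.0626 for ACA against 0.0323 and 0.0327 for ACC. For Leu, CTA had 0.0633 and 0.0586 against 0.0306 and 0.0333 for CTC. Its ratio was 2.07 in replicate 1 and 1.76 in replicate 2, and it was the only one of the 7 boxes with the smaller ratio in replicate 2. Over the 9 boxes with both codons, Gly and Ile included, NNA was above NNC in 9 of 9, by a mean log2 of 0.96. All 9 were called (limma), against 92.0% of all synonymous pairs.

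Each of the 16 boxes with pyrimidine-ended codons holds an NNC codon to set against its NNT partner. Wobble G and wobble inosine both pair with C. NNC lay below NNT in 14 of the 16 boxes in both libraries, and 13 of these differences were called (limma, adjusted over the 87 pairs), against 92.0% of all synonymous pairs. None of the 16 was called in the other direction. Over the 16 boxes the mean log2 ratio of NNC over NNT was −0.29 in replicate 1 and −0.33 in replicate 2.

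Within the 8 ADAT-related boxes the mean log2 ratio of NNC over NNT was −0.23 and −0.32, and all 8 boxes had NNC lower in both libraries. Pro had the widest gap, with 0.0347 and 0.0358 for CCC against 0.0460 and 0.0505 for CCT (log2 −0.45 ± 0.06 SE, limma adjusted p = 2.61e-10). Thr followed, with a log2 ratio of −0.35 for ACC over ACT, then Val (GTC over GTT, −0.33), Leu (CTC over CTT, −0.30), Ala (GCC over GCT, −0.23), Ser (TCC over TCT, −0.22) and Ile (ATC over ATT, −0.22). Arg had the narrowest gap and the only one of the 8 that was not called, with 0.0388 and 0.0393 for CGC against 0.0434 and 0.0413 for CGT. Its log2 ratio was −0.12 (95% interval −0.24 to 0.01, limma adjusted p = 0.0700). The Ser gap was uneven, with log2 ratios of −0.10 in replicate 1 and −0.33 in replicate 2, and its call was lost when the variance was allowed a trend on the level (limma adjusted p = 0.184, against 0.000314 to 0.0416 under the other alternatives).

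In the 8 other boxes the mean log2 ratio of NNC over NNT was −0.34 and −0.33, and it concealed a split. In 6 of them NNC was called lower, at log2 ratios of −0.42 to −0.55. Asn, read in the AAN box it shares with Lys, had 0.0361 and 0.0360 for AAC against 0.0529 and 0.0529 for AAT, the widest gap of all 16 boxes (log2 −0.55 ± 0.06 SE, limma adjusted p = 1.55e-13). Ser AGC over AGT had a log2 ratio of −0.47, Cys (TGC over TGT) and Phe (TTC over TTT) −0.46 each, Tyr (TAC over TAT) −0.43 and His (CAC over CAT) −0.42. The occupancies were 0.0384 and 0.0390 for TGC against 0.0535 and 0.0527 for TGT, and 0.0332 and 0.0343 for TTC against 0.0454 and 0.0474 for TTT. For Tyr and His they were 0.0357 and 0.0367 for TAC against 0.0493 and 0.0481 for TAT, and 0.0364 and 0.0387 for CAC against 0.0493 and 0.0511 for CAT. These 6 boxes, picked out by their calls, averaged −0.47, and each had a wider gap than 7 of the 8 ADAT-related boxes, all but Pro. The ADAT-related set kept its uncalled box, Arg, so this comparison is uneven by selection. Over all 8 boxes of each kind, the means were −0.34 (other) and −0.23 (ADAT-related) in replicate 1. In replicate 2 they were −0.33 and −0.32. Whether the 2 kinds of box differ was not tested.

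Gly and Asp stood apart. For Gly, GGC had 0.0404 and 0.0440 against 0.0380 and 0.0410 for GGT, so that NNC was the higher codon in both libraries. The log2 ratio was 0.10 (95% interval −0.03 to 0.22) and was not called (limma adjusted p = 0.131). For Asp, GAC had 0.0458 and 0.0491 against 0.0458 and 0.0483 for GAT, with a log2 ratio of 0.01 (95% interval −0.11 to 0.14, limma adjusted p = 0.845). Both intervals lie above the −0.42 of His, the narrowest gap of the 6 boxes just described. Since those 6 were set apart by the same calls, this is a description and no test of a difference. GAC was also the only C-ended codon that was not called below the library median.

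**Figure D4:**
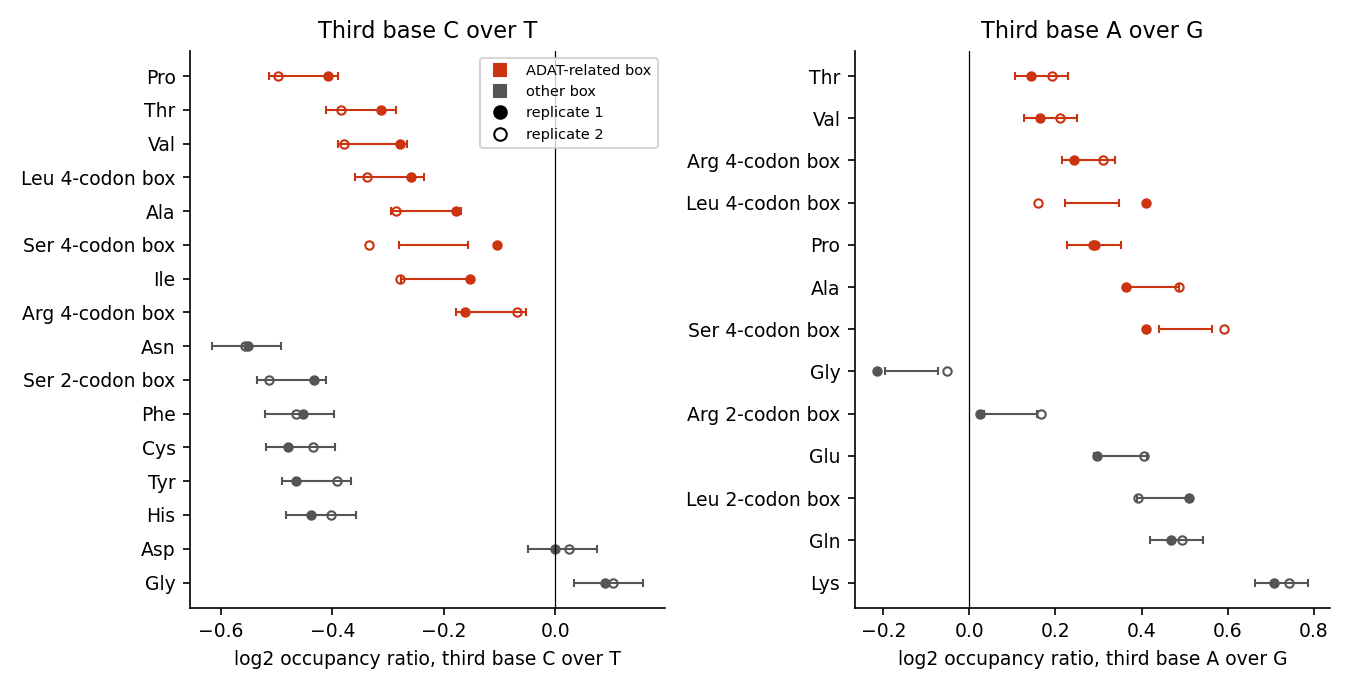
Log2 ratio of A-site occupancy of NNC over NNT in 16 boxes (left) and of NNA over NNG in 13 boxes (right), in WT replicate 1 (filled) and replicate 2 (open), with ADAT-related boxes in red, other boxes in grey, and bars spanning the mean ± 1 SE of limma (0.0621). NNC lies left of 0 in 14 of 16 boxes, with Asp at 0.01 and Gly at 0.10, and NNA lies right of 0 in 12 of 13, with Gly at −0.13.

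Among purine-ended codons, NNA was the higher codon in 12 of 13 pairs in both libraries. It was called higher in 11 and lower in 1 (limma, adjusted over the 87 pairs), against calls in 92.0% of all synonymous pairs. The mean log2 ratio over all 13 was 0.29 in replicate 1 and 0.34 in replicate 2. Lys had the widest gap, with 0.0630 and 0.0649 for AAA against 0.0386 and 0.0388 for AAG, a 1.65-fold difference (log2 0.73 ± 0.06 SE, limma adjusted p = 7.09e-19). AAG was also the lowest G-ended codon in both libraries. In Ser, TCA over TCG had a log2 ratio of 0.50, in Gln CAA over CAG 0.48, in Leu TTA over TTG 0.45 and in Ala GCA over GCG 0.43. The acidic residue Glu followed, with 0.0521 and 0.0557 for GAA against 0.0424 and 0.0420 for GAG (log2 0.35). Pro had a log2 ratio of 0.29 (0.29 in each library), Arg CGN 0.28, Val 0.19 and Thr 0.17. The ratio of CTA over CTG in Leu, 0.29, was uneven, at 0.41 in replicate 1 and 0.16 in replicate 2. The 7 ADAT-related boxes averaged 0.29 and 0.32 in replicates 1 and 2.

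The AGR codons of Arg did not show a called gap. AGA had 0.0589 and 0.0668 and AGG 0.0579 and 0.0595, with a log2 ratio of 0.10 (95% interval −0.03 to 0.22, limma adjusted p = 0.131). Gly was again the exception in direction. GGA had 0.0595 and 0.0645 against 0.0691 and 0.0669 for GGG, a log2 ratio of −0.13 ± 0.06 SE that was called lower (limma adjusted p = 0.0371). This call was lost when codons were not paired within a library (limma adjusted p = 0.108, against 0.00997 to 0.0399 under the other alternatives). The gap was −0.22 in replicate 1 and −0.05 in replicate 2. The whole order of Gly, GGT below GGC below GGA below GGG, was the same in both libraries and was found in no other 4-codon box.

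Between purine- and pyrimidine-ended codons of a box, every comparison was called in the same direction, against calls in 92.0% of all synonymous pairs. NNG was above NNT in 8 of 8 boxes, by a mean log2 of 0.45, and NNC was below NNG in 8 of 8, with a mean log2 ratio of −0.69. NNA was above NNT in 9 of 9, by 0.72. In these 3 sets Gly went with the other boxes.

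Leu, Ser and Arg each have a 4-codon ADAT-related box and a separate 2-codon box, read by different tRNAs, which allows codons with the same amino acid and the same last base to be compared. In Ser the 2-codon box was the higher one. AGC had 0.0351 and 0.0385 against 0.0294 and 0.0285 for TCC (log2 0.35 ± 0.06 SE, limma adjusted p = 3.96e-07). AGT had 0.0474 and 0.0550 against 0.0316 and 0.0359 for TCT, a 1.52-fold difference (log2 0.60 ± 0.06 SE, limma adjusted p = 5.26e-15). In Arg the 2-codon box was the lower one. AGA, with 0.0589 and 0.0668, lay below CGA, with 0.0800 and 0.0851 (log2 −0.40 ± 0.06 SE, limma adjusted p = 1.37e-08), and AGG, with 0.0579 and 0.0595, lay below CGG, with 0.0676 and 0.0687 (log2 −0.21, limma adjusted p = 0.00098).

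Leu showed no called difference between its boxes at matched last bases. CTA had 0.0633 and 0.0586 and TTA 0.0645 and 0.0620, with a log2 ratio of CTA over TTA of −0.05 (95% interval −0.18 to 0.07, limma adjusted p = 0.383). CTG had 0.0476 and 0.0525 and TTG 0.0453 and 0.0473, with a log2 ratio of CTG over TTG of 0.11 (95% interval −0.01 to 0.23, limma adjusted p = 0.0826). At matched last bases the 2-codon box therefore differed from the 4-codon box by a mean log2 of −0.02 and −0.03 in Leu, 0.42 and 0.53 in Ser, and −0.33 and −0.28 in Arg in replicates 1 and 2. Over all codons of the boxes, which differ in their last bases, the values were 0.33 and 0.25 in Leu, 0.13 and 0.17 in Ser, and 0.09 and 0.18 in Arg. Of all 87 pairs, the only other one without a call was AGA over CGG of Arg, at a log2 ratio of −0.12 (95% interval −0.24 to 0.0039, limma adjusted p = 0.0617).

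Amino acids differed less than last bases did. The codons of Arg, a basic residue, had the highest mean log2 occupancy relative to the library median, at 0.29 and 0.27 in replicates 1 and 2. Pro, whose ring makes it a slow substrate for peptide bond formation in other organisms, followed at 0.15 and 0.18, and Gly at 0.13 and 0.14. Arg, Pro and Gly kept places 1 to 3 in both libraries. At the low end, Phe had −0.24 and −0.25, Ser −0.25 and −0.17, Tyr −0.13 and −0.20 and His −0.11 and −0.11. The middle of this order was loose. Ile ranked 5 in replicate 1 and 13 in replicate 2, with means of 0.09 and −0.04, and Gln ranked 11 and 4. These means are not balanced for last base. Phe, Tyr and His have only C- and T-ended codons, and Lys, Gln and Glu only A- and G-ended ones. Over all amino acids, pyrimidine-ended codons averaged −0.22 and −0.24 in replicates 1 and 2, and purine-ended codons 0.28 and 0.27. How far the order of amino acids follows from their last bases was not tested.

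The amino acids with a single codon lay near the median. Met (ATG, internal positions, since codons next to the start were left out by the authors) had 0.0440 and 0.0472, and Trp (TGG) had 0.0488 and 0.0483. Neither was called against the median (limma adjusted p = 0.353 and 0.272). The number of synonymous codons went with little difference. Mean log2 occupancy relative to the median was 0.02 and −0.01 for amino acids with 1 codon, −0.05 and −0.07 with 2, 0.09 and −0.04 with 3 (Ile alone), 0.07 and 0.05 with 4, and 0.02 and 0.03 with 6. Within an amino acid, the ratio of the highest to the lowest codon ran from 1.00 (Asp) to 1.63 (Lys) in replicate 1 and from 1.02 to 1.67 in replicate 2 for those with 2 codons. For those with 3 or more it ran from 1.79 (Ser) to 2.11 (Leu) in replicate 1 and from 1.63 (Gly) to 2.27 (Ser) in replicate 2, so that the ranges overlapped in replicate 2 only.

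Some codons departed from the sum of their amino acid and last base in the same direction in both libraries. AGT of Ser lay above that sum by 0.38 and 0.42 on the log2 scale, AGC of Ser by 0.23 and 0.24, GGG of Gly by 0.29 and 0.19 and CGG of Arg by 0.20 and 0.20. Below the sum, the departures were −0.24 and −0.26 for TCG of Ser, −0.30 and −0.18 for AGA of Arg and −0.23 and −0.21 for GGA of Gly. The largest departures thus came from Ser, Arg and Gly. Close to CGG came AAA of Lys, at 0.20 and 0.20, with AAG at −0.20 and −0.20. With 2 codons the departures are equal and opposite by construction, and with 1 codon they are 0, so amino acids of different size compare unevenly.

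Set against the median codon of its library, 26 codons were called higher (42.6% of the 61) and 27 lower (44.3%) by limma, and 8 were not called. All 14 A-ended codons were among the higher ones, and 15 of the 16 C-ended codons among the lower ones. The T-ended codons were divided, with 4 called higher and 8 lower, and so were the G-ended codons, with 8 called higher and 4 lower. The 4 T-ended codons called higher were AAT, AGT, CAT and TGT, none of them ADAT-related, and the 8 called lower were GGT of Gly and the 7 ADAT-related NNT codons other than CCT. On the mean log2 scale the ADAT-related NNT codons lay at −0.21 and −0.19 in replicates 1 and 2, and the other NNT codons at 0.05 and 0.04. The ADAT-related NNC codons lay at −0.44 and −0.51 and the other NNC codons at −0.29 and −0.29. ADAT-related NNA codons, in contrast, lay higher, at 0.53 and 0.53, than the other NNA codons, at 0.35 and 0.37. So did the ADAT-related NNG codons, at 0.21 and 0.20, against 0.04 and 0.01 for the other NNG codons. The higher level was thus shared by both kinds of purine-ended codons of these boxes. These differences are descriptions over codons and were not tested.

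The libraries differed by a small shift and by differences of single codons around it. The log2 ratio of replicate 2 over replicate 1 had an SD of 0.0836 over the codons. Replicate 2 had the higher value in 46 codons and replicate 1 in 15, with a median ratio of replicate 2 over replicate 1 of 1.04. Pearson's r of log2 occupancy over the 61 codons was 0.974 (Spearman's rho 0.974), as a description, since the codons share the libraries and the mRNA levels. The SD of a log2 value between libraries, after the shift was removed, was 0.0591, or 4.18% of a level. TCA of Ser differed the most once the median log2 ratio was subtracted, with 0.0645 in replicate 2 and 0.0525 in replicate 1, a ratio of 1.23. By the same measure CTA of Leu, AGT of Ser, GTC of Val and ATC of Ile came next, with ratios of replicate 2 over replicate 1 of 0.925, 1.16, 0.928 and 0.930 before the subtraction. By last base, the mean log2 ratio of replicate 2 over replicate 1 was 0.08 for A, 0.07 for T, 0.04 for G and 0.03 for C. The depth behind an occupancy is unknown, because the values carry no read numbers, and the values were deposited in steps of 0.0001 in replicate 1 and of 1e-05 in replicate 2.

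**Figure D5:**
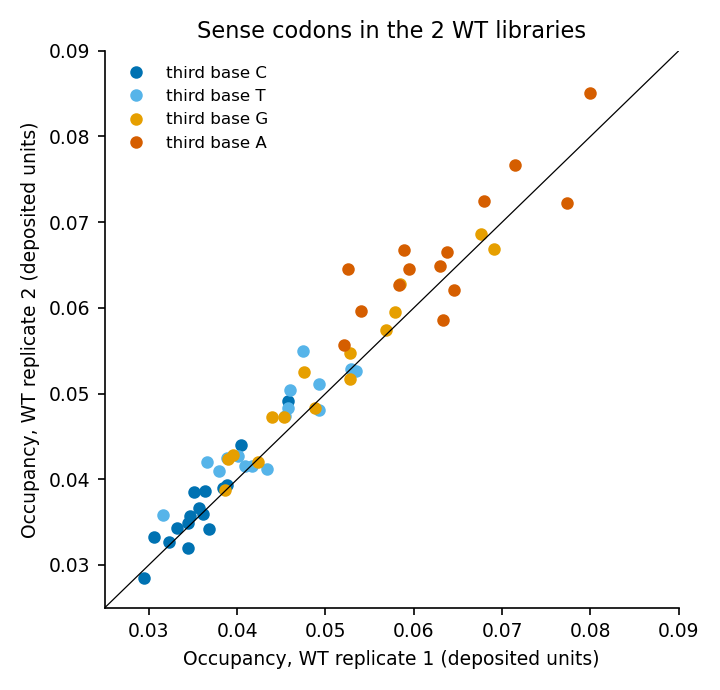
A-site codon occupancy (deposited units) of the 61 sense codons in WT replicate 2 (vertical) against WT replicate 1 (horizontal), both axes linear and not from 0, with colours marking the third base and the diagonal marking equal values. Of the 61 codons, 46 lie above the diagonal and 15 below it, and TCA, at 0.0525 and 0.0645, lies farthest from the diagonal.

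The mRNA-seq made beside the WT footprints, whose levels divide every occupancy, was shallow. It held 961703 reads over 7860 genes in replicate 1 and 2361460 reads over 8376 genes in replicate 2, so that a listed gene had 35 and 77 reads in the median, and 20.3% and 14.3% of the listed genes had fewer than 10 reads. Conidial markers were present in these libraries labelled mycelia. Of 5 such markers (*con-6*, *con-8*, *con-10*, *con-13* and *eas*), 4 were listed in replicate 1 and 5 in replicate 2, and their summed level was 2196 and 2260 RPM (reads scaled to the library total). The hydrophobin gene *eas* (1219 and 1265 RPM) and *con-6* (878 and 891 RPM) made up most of it. Few reads came from the others at the low end. *con-10* had 5 and 25 reads, and *con-13* was not listed in replicate 1 and had 9 reads in replicate 2. *matA-1*, a gene of mating type A, was listed in neither library. At this depth that does not settle the mating type, and no gene of mating type *a* was looked up. *adat2*, which encodes the catalytic subunit of the deaminase, was listed in both libraries (8.32 and 10.6 RPM). Whether the marker reads came from conidia was not tested. Nor was the part of these transcripts, of the shallow mRNA-seq, of the arginine in the medium or of CHX in the occupancies.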

How the data were processed

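Ribosome footprints of WT mycelia were prepared with the ARTseq kit. The authors removed rRNA and tRNA reads, mapped the rest to coding sequences with Bowtie2, kept unique in-frame matches of selected lengths, and left out codons near the start and stop. The labels list TopHat2 and Cufflinks with no role. The deposited signal, the absolute codon occupancy, is an average over all positions of a codon of its A-site reads, scaled by library size and by transcript level. Read counts, FPKM and a codon bias score per gene, as deposited for the accompanying mRNA-seq, were used for depth and markers only. The remaining files were not used.

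Log2 ratios of synonymous codons within a library were tested against 0 with limma 3.58.1 in R 4.3.3 (intercept, eBayes without trend), as were codons minus the library median, with Benjamini-Hochberg adjustment and a threshold of 0.05. The within-library ratio acts as a block, since both codons of a ratio come from the same library. The test was first run on simulated data. No exact test of 2 libraries could pass the threshold. Python 3.11.15 was used for the rest. Codons named were the NNC and NNT pairs, the NNA and NNG pairs, Met, Trp, the 5 highest and lowest, the ends of each family and the 5 that differed most between libraries. Pairs across the boxes of Leu, Ser and Arg belong to the 87 pairs tested but were named outside this rule, after their values were seen. The averages of these boxes at matched last bases and the departures from amino acid and last base were also added after the data were seen. The codons, groups and markers were chosen with earlier results of these data known. Alternatives were no block, a linear scale, a variance trend, robust estimation, other adjustment, CGA left out and each library alone. Codon use and tRNA genes were not analysed here.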

Additional observations from a re-analysis of the deposited data

How the results depend on the processing

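Of the 87 synonymous pairs, 80 were called, 76 with no replicate block (an unpaired comparison, which lost AGC over TCG, AGC over TCT, AGT over TCA and GGA over GGG), 79 on the linear scale (without AGC over TCG and AGC over TCT, and with AGA over CGG), 78 with a variance trend (which lost AGC over TCT and TCC over TCT), 80 with robust estimation and 80 with adjustment over all pairs of sense codons. With CGA left out 74 of 82 were called, without AGC over TCT. No pair changed direction under these alternatives. Each library alone allows no test, and kept the direction of the 80 called pairs. The number of NNC over NNT pairs called stayed at 13 under each of these fits except the trend, with 12, and that of NNA over NNG pairs called higher at 11, or 10 with CGA left out.

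Descriptions moved more. In the other boxes the mean log2 of NNC over NNT, −0.34, was −0.44 as a median, −0.40 without Gly and −0.47 without Gly and Asp, the last chosen after seeing the data. The means by last base within amino acid, 0.40 (A), −0.35 (C), 0.06 (G) and −0.05 (T), became 0.46, −0.38, 0.11 and −0.077 centred on the library median, and 0.47, −0.47, 0.22 and −0.23 in the 4-codon boxes alone. The amino acid's share of variance, 15.3%, was 12.4% without CGA. As medians, families of 2, 3 and 4 codons lay at −0.0067, −0.19 and 0.097, against means of −0.06, 0.03 and 0.06. The 17 amino acids with 1 order in both libraries were 9 when limited to 3 or more codons. The 2-codon box over the 4-codon box was 0.29 in Leu, 0.15 in Ser and 0.14 in Arg, and at matched last bases −0.028, 0.47 and −0.31, also chosen after seeing the data; the median for Ser was 0.22.

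Depth is unknown for the occupancies, and 2 libraries give 1 degree of freedom a pair, so the p-values rest on a spread shared by all pairs. The depth of the accompanying mRNA-seq, 961703 and 2361460 reads, limits the mRNA levels that enter every occupancy.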
